A study of Mus musculus with 9 samples.

Results

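A set of 42 genes of the mTOR pathway was examined in RNA-seq libraries of mouse embryonic stem cells with and without the Ragulator subunit Hbxip, now named Lamtor5. The set holds 11 genes of the mTOR complexes and their assembly, 5 of the TSC complex and its target RHEB, 13 of the amino acid sensing branch (GATOR1, GATOR2, KICSTOR and the sestrins), 4 AKT and PI3K genes, and 9 effectors of mTORC1. Members were chosen by name, with earlier results of these data known. They were kept where their mean level was at least 0.5 FPKM, a unit of reads per gene length and library size. All 42 listed members passed, of 13990 genes that passed and 20287 genes listed in at least 1 library. The cells were of the E14 line, strain 129, and were wild type (WT) or homozygous knockout (KO, Hbxip-/-). They came from pluripotent culture, from day 4 of culture with LIF withdrawn for 96 h, or from embryoid bodies, the aggregates in which such cells start to differentiate. LIF is the cytokine that holds mouse embryonic stem cells in an undifferentiated state. Each of the 3 cultures had 1 WT library and 2 KO libraries, 9 in all, and the labels do not say whether libraries came from separate cultures or clones.

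The mTOR kinase works in 2 complexes. In mTORC1 it is joined by RAPTOR and drives translation and growth, and in mTORC2 it is joined by RICTOR and phosphorylates AKT. Amino acids bring mTORC1 to the lysosome through the Rag GTPases and the Ragulator complex, which anchors the Rags there. GATOR1 switches the Rags off, GATOR2 opposes GATOR1, and KICSTOR holds GATOR1 at the lysosome. Sestrins bind GATOR2, in the case of Sestrin2 when leucine is low. Growth factors act through PI3K, PDK1 and AKT, which inhibits the TSC complex and so frees RHEB, the direct activator of mTORC1. RNA levels, which are what was measured here, are not a measure of the activity of these proteins.

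Library totals ran from 10147277 to 10863845 rounded counts. Hbxip reads were still present in all 6 KO libraries: 31.0 and 29.1 FPKM against 40.7 FPKM in WT in pluripotent culture, 16.2 and 15.5 against 38.5 FPKM after LIF withdrawal, and 23.0 and 18.3 against 41.8 FPKM in embryoid bodies. The fall in pluripotent culture did not pass the test (adjusted p = 0.0971), so the knockout is taken from the labels. The 8 pluripotency markers summed to between 3653 and 4940 FPKM in every library, in embryoid bodies too. Of these sums 1565 to 2604 FPKM came from Dppa5a. The 7 markers besides Dppa5a went down in WT, from 3217 FPKM (pluripotent) to 1791 FPKM (no LIF) and 1723 FPKM (embryoid bodies). In KO their sums were 2496 and 2746 FPKM, then 2077 and 2088, then 2365 and 2174, in the same order of cultures. The summed level of 8 extraembryonic endoderm markers was 26.7 and 20.8 FPKM in the KO pluripotent libraries and 7.01 to 11.7 FPKM in the other 7. Amn alone made up 22.3 and 17.5 FPKM of the former, and the 7 markers besides Amn summed to 4.42 and 3.28 FPKM there against 5.37 FPKM in WT pluripotent cells. Summed neuroectoderm markers were 130 FPKM in WT pluripotent cells, 56.6 and 55.2 FPKM in KO pluripotent cells and 43.1 to 68.8 FPKM in the rest. Tubb3 carried most of the pluripotent sums, with 118 FPKM in WT and 51.8 and 49.8 in KO, and the 7 markers besides Tubb3 summed to 12.03 FPKM in WT and 4.81 and 5.40 in KO. Those of the primitive streak list were 61.7 and 105 FPKM in WT after LIF withdrawal and in WT embryoid bodies, against 12.03 to 16.3 FPKM in the matching KO libraries, and without Eomes 40.1 and 70.1 FPKM against 1.13 to 1.59 FPKM. Fibroblast markers summed to 6.70 to 37.0 FPKM, of which Thy1 alone made up 5.58 to 34.2 FPKM and the 7 others 0.68 to 7.5 FPKM, with 1 to 3 of Col3a1, Dcn, Lum and Postn at 0 in each library. What part these marker differences have in the results below was not tested.

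The levels of the members, which can be set side by side because FPKM is per length, spanned about 2 orders of magnitude. The highest mean over the 9 libraries was that of Eif4ebp1, a repressor of cap-dependent translation that mTORC1 switches off, with 310 FPKM. The initiation factor gene Eif4b followed with 199 FPKM, then Sec13 of GATOR2 with 83.5 FPKM. The lowest means were those of Prr5l, an mTORC2 partner, with 2.56 FPKM and of Lpin1, which encodes lipin-1, a phosphatidate phosphatase and mTORC1 substrate, with 4.67 FPKM. The cap-binding protein gene Eif4e varied least between libraries, from 34.0 to 40.2 FPKM, a ratio of 1.18. Lpin1 varied most, from 1.77 to 9.08 FPKM, a ratio of 5.13, followed by Sesn3 with 4.59 and Sesn2 with 3.83.

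The comparison of KO with WT within a culture asked which members differed with Hbxip genotype. In pluripotent culture Lpin1 and the sestrin gene Sesn2 were far lower in KO, while Akt1, Akt2, Prr5l and Akt1s1 were higher. Lpin1 was at 9.08 FPKM in WT versus 1.77 and 1.90 FPKM in KO, a log2 fold change of -2.20 ± 0.13 (adjusted p = 1.26e-07). Each difference is given as a log2 fold change with its standard error. Each adjusted p comes from the quasi-likelihood test of edgeR, adjusted by Benjamini-Hochberg over all 13990 genes and called below 0.05. The fold changes come from counts scaled between libraries and the FPKM are the authors' own, so their ratios can differ. Since WT had 1 library per culture, its spread was taken to equal that of the KO pairs, and the p-values reflect the spread between these libraries alone, which may be technical. In bulk RNA, fewer cells of a type and less RNA per cell cannot be told apart.

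In pluripotent culture 17 members rose in KO and 9 fell, where 25.5% of all genes tested rose and 26.3% fell. After LIF withdrawal 9 rose and 2 fell, against 18.4% and 17.5% of all genes, and in embryoid bodies 7 rose and 6 fell, against 19.4% and 17.8%. The median difference of the members was 0.04 in pluripotent culture, 0.15 without LIF and 0.05 in embryoid bodies, beside medians of -0.01, 0.00 and 0.00 over all genes. Members moved in both directions, and they are described below by role. A total of 35 of the 42 members were called in at least 1 culture, where 70.6% of all genes were, and 14 in pluripotent culture alone, where 21.1% of all genes were. The 7 called in none were Mapkap1, Telo2, Tbc1d7, Nprl3, Seh1l, Sec13 and Pik3ca. Of these, Telo2 and Pik3ca gained calls with a length correction, as given below. Tsc2 was the 1 member called higher in all 3 cultures, where 6.92% of all genes were, and none was called lower in all 3, where 5.65% of all genes were.

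**Figure D1:**
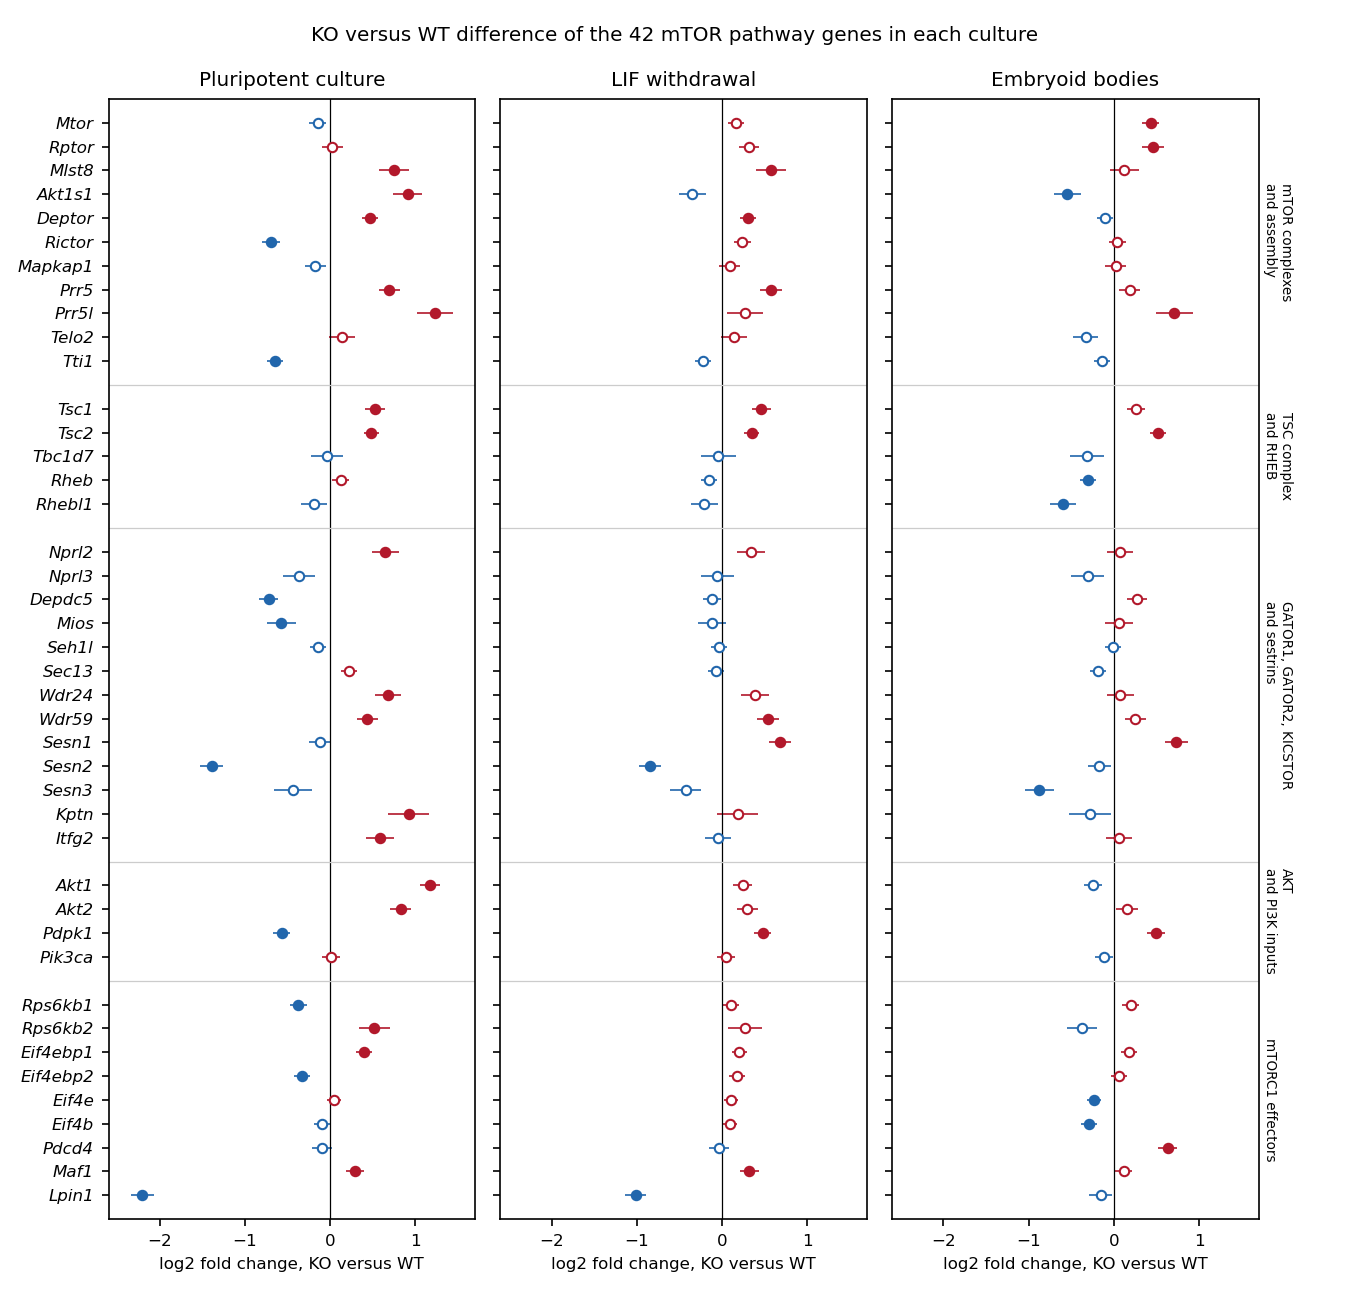
Log2 fold change of KO versus WT (horizontal axis) for each of the 42 genes, grouped by role, in the 3 cultures. Points are fitted values with standard errors as bars, red above 0 and blue below, filled where the adjusted p was below 0.05. Lpin1 moves from -2.20 in pluripotent culture to -1.01 after LIF withdrawal and -0.16 in embryoid bodies, while Tsc2 is filled and above 0 in every panel.

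The promoters of Lpin1 and Sesn2, the members with the largest falls, and of Akt1, the AKT gene with the largest rise, are shown for reference. Each run is the 250 bases upstream of an annotated start in RefSeq's table for GRCm38.p6, read on the minus strand, and the deposited values are from another build. Lpin1 lies at chr12:16610967-16611216, Sesn2 at chr4:132510457-132510706 and the GC-rich start of 2 annotated for Akt1 at chr12:112674277-112674526. Capitals mark matches on either strand to CCAAT, the CCAAT box, or GGGCGG, the GC box.
Lpin1: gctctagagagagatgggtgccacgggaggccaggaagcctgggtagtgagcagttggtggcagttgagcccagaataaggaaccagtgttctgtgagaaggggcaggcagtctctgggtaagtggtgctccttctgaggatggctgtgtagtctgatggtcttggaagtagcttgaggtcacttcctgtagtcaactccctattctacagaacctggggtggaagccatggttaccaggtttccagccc
Sesn2: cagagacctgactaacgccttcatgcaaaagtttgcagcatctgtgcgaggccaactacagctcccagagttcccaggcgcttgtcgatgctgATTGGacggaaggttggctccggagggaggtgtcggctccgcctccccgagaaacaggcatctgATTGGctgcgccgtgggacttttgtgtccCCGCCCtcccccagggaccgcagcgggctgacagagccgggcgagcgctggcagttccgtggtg
Akt1: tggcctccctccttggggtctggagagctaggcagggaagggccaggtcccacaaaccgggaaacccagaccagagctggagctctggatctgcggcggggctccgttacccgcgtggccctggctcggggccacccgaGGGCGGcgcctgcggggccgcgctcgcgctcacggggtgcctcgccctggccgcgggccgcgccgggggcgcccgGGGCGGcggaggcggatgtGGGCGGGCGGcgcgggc
The Sesn2 run held 2 CCAAT boxes and 1 GC box and was 63.2% G and C. The Akt1 run held 4 GC boxes, a pair of them overlapping, and was 78.4% G and C, while the run at the other Akt1 start held none. The Lpin1 run, 54.8% G and C, held neither motif, nor the E-box CACGTG, the core TGATGNAA of the ATF4 element or the core TCACNCCA of the sterol response element. Of 48 promoters found for 35 of the members, 52.1% held a GC box and 31.2% a CCAAT box, against 32.7% and 33.8% of all 32851 promoters of that length. The E-box stood in 6.25% of them (Eif4e, Rheb and Tbc1d7) against 6.02% of all, the ATF4 core in 2.08% (Akt2) against 3.45%, and the sterol core in 2.08% (Sesn1) against 3.67%. These are matches of letters and show no binding.

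Among the 11 genes of the mTOR complexes and their assembly, 5 rose and 2 fell in KO pluripotent cells, 3 rose after LIF withdrawal, and 3 rose and 1 fell in embryoid bodies. The kinase gene Mtor itself was at 13.0 FPKM in WT versus 11.04 and 10.5 FPKM in KO in pluripotent culture, at 13.5 against 14.0 and 15.2 FPKM after LIF withdrawal, and at 9.57 against 12.4 and 13.5 FPKM in embryoid bodies. In FPKM, KO was thus below WT in the first culture and above it in the other 2. A length correction gave Mtor a pluripotent difference of 0.11, above 0 and not called. The rise in embryoid bodies was called (0.43 ± 0.10, adjusted p = 0.00481), and the differences of -0.15 ± 0.10 in pluripotent culture (adjusted p = 0.223) and 0.17 ± 0.10 after LIF withdrawal (adjusted p = 0.202) were not. Rptor, which encodes the substrate-binding partner in mTORC1, had 6.77 FPKM in WT versus 8.61 and 9.89 FPKM in KO embryoid bodies, a rise of 0.46 ± 0.13 (adjusted p = 0.0139). DESeq2, a length correction and the fit without KO embryoid body replicate 2 each lost that call. Its pluripotent level was 10.3 FPKM in WT versus 10.2 and 9.03 FPKM in KO, with a fitted difference of 0.02 ± 0.12 (adjusted p = 0.882).

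Mlst8, the subunit gene common to both complexes, was at 3.67 FPKM in WT versus 5.48 and 5.84 FPKM in KO pluripotent cells, and at 3.45 against 5.15 and 4.63 FPKM after LIF withdrawal. Its embryoid body level was 4.66 FPKM in WT versus 4.85 and 5.30 FPKM in KO, above WT in both libraries but by little. It rose by 0.75 ± 0.17 (adjusted p = 0.00301) in the first culture and by 0.57 ± 0.17 (adjusted p = 0.0225) in the second. The second call was lost with DESeq2, with limma and without KO replicate 1. Deptor, an inhibitor of both complexes, was at 7.05 FPKM in WT versus 8.78 and 9.32 FPKM in KO pluripotent cells, and at 8.43 against 10.2 and 9.81 FPKM after LIF withdrawal. It rose by 0.47 ± 0.10 (adjusted p = 0.00145) and 0.31 ± 0.09 (adjusted p = 0.0217). DESeq2, limma, a length correction and the fit without KO replicate 1 each lost the call after LIF withdrawal. In embryoid bodies Deptor was at 10.2 FPKM in WT versus 9.68 and 9.20 FPKM in KO, which did not pass (adjusted p = 0.405). The length correction called Deptor lower in KO there (-0.27), opposite to its pluripotent rise.

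Akt1s1 encodes PRAS40, an inhibitor of mTORC1 that AKT phosphorylates, and its difference turned over between cultures. It was at 12.4 FPKM in WT versus 23.1 and 20.3 FPKM in KO in pluripotent culture, and at 26.8 FPKM in WT versus 19.1 and 17.5 FPKM in KO in embryoid bodies. WT thus lay below both KO libraries in the former and above both in the latter. It rose by 0.91 ± 0.17 (adjusted p = 0.000888) in pluripotent culture and fell by 0.55 ± 0.16 (log2) in embryoid bodies (adjusted p = 0.0164), a call lost with DESeq2 and without KO embryoid body replicate 2. After LIF withdrawal it was at 20.4 FPKM in WT versus 17.3 and 13.3 FPKM in KO (adjusted p = 0.122).

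Of the mTORC2 genes, Rictor fell in KO pluripotent cells while Prr5 and Prr5l rose. Rictor was at 4.92 FPKM in WT versus 2.74 and 2.84 FPKM in KO, a log2 fold change of -0.70 ± 0.11 (adjusted p = 0.000193). After LIF withdrawal its level was 5.56 FPKM in WT versus 6.09 and 6.5 FPKM in KO, and in embryoid bodies at 5.81 FPKM in WT versus 5.77 and 6.20 FPKM in KO, and neither difference was called (adjusted p = 0.0863 and 0.801). The lowest 2 of the 9 Rictor values were therefore the KO pluripotent ones. Prr5, whose product Protor-1 binds RICTOR, was at 14.5 FPKM in WT versus 21.8 and 21.2 FPKM in KO pluripotent cells, at 11.4 against 16.5 and 16.1 FPKM after LIF withdrawal, and at 16.9 against 19.5 and 19.1 FPKM in embryoid bodies. Both KO libraries exceeded WT in each culture, and the rise was called in pluripotent culture (0.69 ± 0.12, adjusted p = 0.000552) and after LIF withdrawal (0.58 ± 0.13, adjusted p = 0.00418), though not by DESeq2 in the latter. In embryoid bodies it was not called (0.19 ± 0.12, adjusted p = 0.258).

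Prr5l, the gene of the related Protor-2, had the largest rise of any member. It was at 1.78 FPKM in WT versus 4.09 and 3.64 FPKM in KO pluripotent cells, at 1.99 against 2.12 and 2.53 FPKM after LIF withdrawal, and at 1.62 against 2.83 and 2.48 FPKM in embryoid bodies. The rise was 1.23 ± 0.21 in pluripotent culture (adjusted p = 0.000363) and 0.71 ± 0.22 in embryoid bodies (adjusted p = 0.0228). The second was lost with DESeq2, with limma and without KO replicate 1. Mapkap1, which encodes the mTORC2 subunit SIN1, stayed between 13.0 and 16.5 FPKM in all 9 libraries and was not called in any culture (adjusted p = 0.254, 0.599 and 0.92). Of the assembly factors, Tti1 was at 18.9 FPKM in WT versus 11.2 and 10.9 FPKM in KO pluripotent cells, at 18.6 against 15.1 and 15.4 FPKM after LIF withdrawal, and at 17.9 against 16.4 and 16.4 FPKM in embryoid bodies. KO was below WT each time, and the fall was called in pluripotent culture (-0.65 ± 0.10, adjusted p = 0.000123). Its partner Telo2 was between 6.0 and 7.8 FPKM and was not called in any culture (adjusted p of at least 0.101). A length correction called Telo2 lower in KO embryoid bodies (-0.43).

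The TSC complex is the brake on RHEB, and the genes of its 2 main subunits were both higher in KO. Tsc2, the GTPase-activating subunit, was at 19.4 FPKM in WT versus 25.5 and 24.1 FPKM in KO in pluripotent culture, at 20.6 against 24.9 and 25.03 FPKM after LIF withdrawal, and at 16.1 against 22.9 and 23.3 FPKM in embryoid bodies. All 6 KO values lay above all 3 WT values. Tsc2 overlaps the protein-coding gene Pkd1, and strandedness is not given, so reads may be shared between them. Tsc2 rose by 0.48 ± 0.09 (adjusted p = 0.000736), 0.35 ± 0.09 (adjusted p = 0.00909) and 0.52 ± 0.09 (adjusted p = 0.000835) in turn. Tsc1, the subunit that stabilises Tsc2, was at 4.12 FPKM in WT versus 5.07 and 5.83 FPKM in KO pluripotent cells, at 5.11 against 6.64 and 6.87 FPKM after LIF withdrawal, and at 6.03 against 7.15 and 7.33 FPKM in embryoid bodies. KO exceeded WT within each culture, and Tsc1 rose by 0.53 ± 0.11 (adjusted p = 0.00195) and 0.46 ± 0.11 (adjusted p = 0.00534) in the first 2. These Tsc1 calls were lost with limma, the second with DESeq2 too. The difference of 0.26 ± 0.11 in embryoid bodies did not pass (adjusted p = 0.073).

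Tbc1d7, the remaining TSC subunit, was at 18.7 FPKM in WT versus 16.5 and 17.1 FPKM in KO pluripotent cells, at 11.9 against 12.8 and 9.24 FPKM after LIF withdrawal, and at 14.6 against 12.5 and 11.1 FPKM in embryoid bodies. None of these differences was called (adjusted p = 0.885, 0.893 and 0.242). Rheb was between 41.8 and 59.6 FPKM in the 9 libraries and fell in KO embryoid bodies, from 59.6 FPKM to 49.4 and 47.7 FPKM (-0.30 ± 0.10, adjusted p = 0.0273). DESeq2, a length correction, dropping the filter on low levels and leaving out either KO embryoid body library each lost this call. Rhebl1, a RHEB-like GTPase gene, was at 22.4 FPKM in WT versus 14.3 and 15.4 FPKM in KO embryoid bodies, a difference of -0.60 ± 0.15 (adjusted p = 0.00774) that DESeq2 did not call. It was lower in both KO libraries of the other cultures too, without passing there (adjusted p = 0.327 and 0.333).

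**Figure D2:**
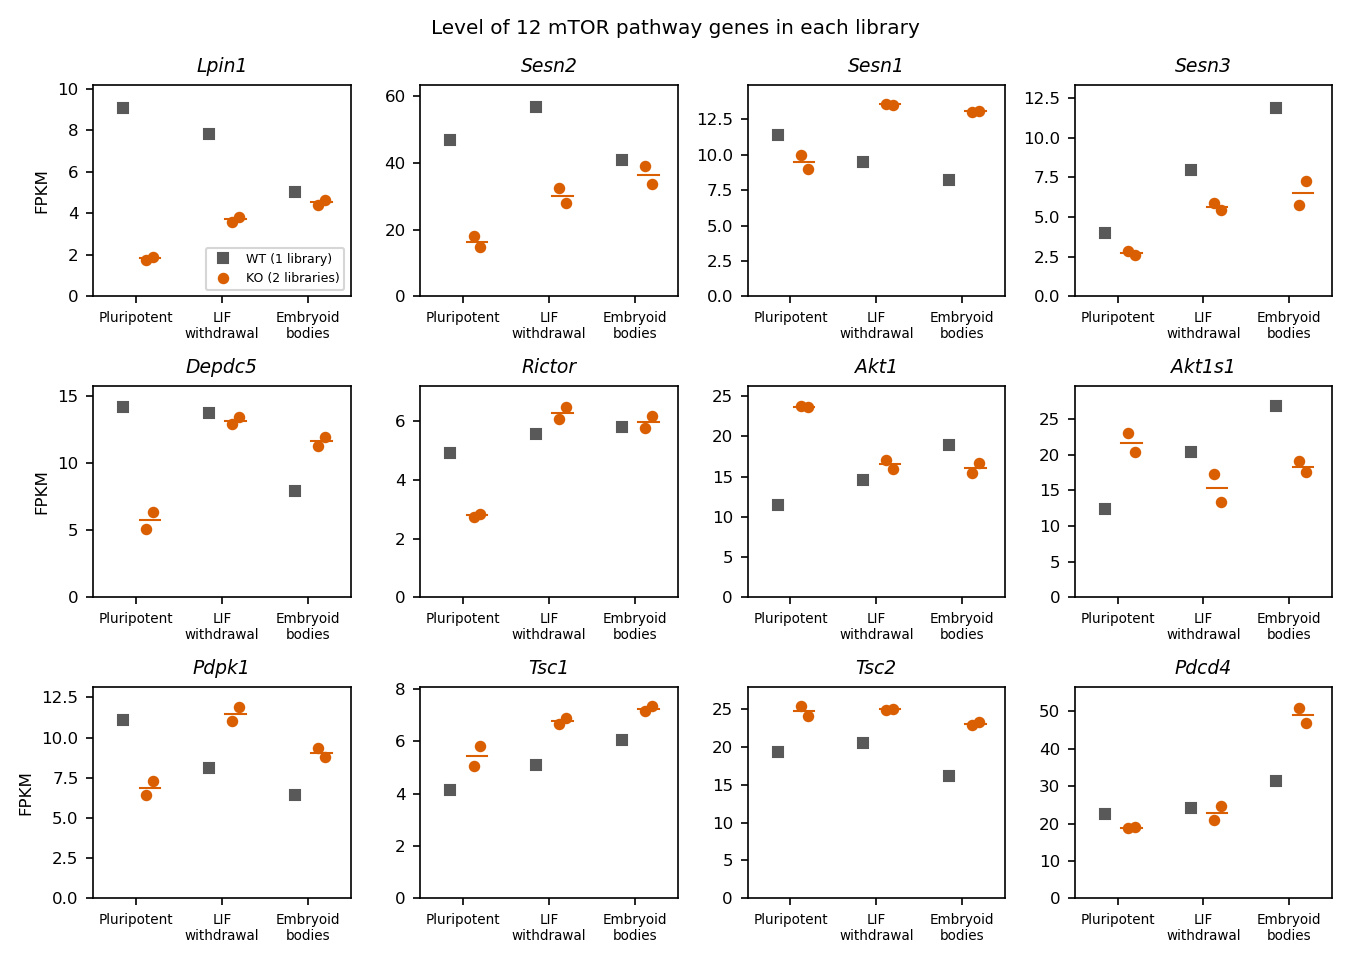
FPKM of 12 members in each of the 9 libraries, with a grey square for the 1 WT library and orange circles for the 2 KO libraries of a culture, and a line at the KO mean. Each panel has its own axis from 0. Tsc2 lies between 22.9 and 25.5 FPKM in the KO libraries and at 20.6 FPKM or less in WT, whereas Akt1s1 and Pdpk1 change sides between cultures.

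Within the amino acid sensing branch, 5 of 13 genes rose and 3 fell in KO pluripotent cells, 2 rose and 1 fell after LIF withdrawal, and 1 rose and 1 fell in embryoid bodies. The genes of the sestrins, which restrain GATOR2, each had a pattern of their own. Sesn2 was at 46.8 FPKM in WT versus 18.0 and 14.8 FPKM in KO pluripotent cells, at 56.7 against 32.4 and 27.9 FPKM after LIF withdrawal, and at 40.8 against 39.1 and 33.6 FPKM in embryoid bodies. All KO values lay below all WT values, with a narrow gap in embryoid bodies. Sesn2 fell by 1.39 ± 0.14 (log2) in pluripotent culture (adjusted p = 6.43e-06) and by 0.85 ± 0.13 after LIF withdrawal (adjusted p = 0.000347), and its difference of -0.17 ± 0.14 in embryoid bodies was not called (adjusted p = 0.351).

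Sesn1 was higher in KO outside pluripotent culture. It was at 11.4 FPKM in WT versus 9.97 and 9.03 FPKM in KO pluripotent cells, at 9.52 against 13.6 and 13.5 FPKM after LIF withdrawal, and at 8.23 against 13.0 and 13.1 FPKM in embryoid bodies. The rises of 0.68 ± 0.13 (adjusted p = 0.0013) and 0.73 ± 0.13 (adjusted p = 0.00101) were called, and the pluripotent difference of -0.12 ± 0.13 was not (adjusted p = 0.47). Sesn3 was lower in every KO library than in the WT library of its culture: 2.86 and 2.59 against 4.02 FPKM in pluripotent culture, 5.85 and 5.46 against 7.93 FPKM after LIF withdrawal, and 5.76 and 7.24 against 11.9 FPKM in embryoid bodies. It fell in embryoid bodies, by 0.87 ± 0.17 (log2) (adjusted p = 0.00194), and the other differences of -0.43 ± 0.22 and -0.43 ± 0.18 did not pass (adjusted p = 0.125 and 0.0926).

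GATOR1 is built of DEPDC5, NPRL2 and NPRL3, and in KO pluripotent cells Depdc5 fell while Nprl2 rose. Depdc5 was at 14.2 FPKM in WT versus 5.09 and 6.38 FPKM in KO pluripotent cells, at 13.7 against 12.9 and 13.4 FPKM after LIF withdrawal, and at 7.91 against 11.3 and 11.95 FPKM in embryoid bodies. The gene length given for Depdc5 differed between libraries, from 5369 to 7968 bases, and was 5788 bases in WT pluripotent cells and 7960 and 7968 bases in KO. FPKM divides by that length, so its FPKM values overstate the change in reads, which were 879 rounded counts in WT and 426 and 524 in KO pluripotent cells. On counts the fall was 0.72 ± 0.11 on the log2 scale (adjusted p = 0.000207). After LIF withdrawal and in embryoid bodies Depdc5 was not called (-0.12 ± 0.11 and 0.27 ± 0.11, adjusted p = 0.444 and 0.0817). Nprl2 was at 8.32 FPKM in WT versus 11.7 and 12.2 FPKM in KO pluripotent cells, a rise of 0.65 ± 0.16 (adjusted p = 0.00505) that DESeq2 and a length correction did not call. Nprl3 was at 10.6 FPKM in WT versus 6.80 and 8.29 FPKM in KO in the same culture and did not pass (adjusted p = 0.118).

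GATOR2, which counters GATOR1, also showed unequal changes among its genes. Wdr59 was at 6.05 FPKM in WT versus 7.48 and 7.52 FPKM in KO pluripotent cells, at 6.18 against 7.98 and 9.21 FPKM after LIF withdrawal, and at 7.50 against 8.42 and 9.56 FPKM in embryoid bodies. It was above WT in all 6 KO libraries and was called in the first 2 cultures (0.44 ± 0.13, adjusted p = 0.0125, and 0.54 ± 0.13, adjusted p = 0.00526). DESeq2 called neither of these, and limma lost the pluripotent one. Wdr24 rose in pluripotent culture, from 6.77 FPKM to 9.15 and 10.8 FPKM (0.68 ± 0.16, adjusted p = 0.00304), and Mios fell there, from 6.03 FPKM to 3.70 and 3.75 FPKM (-0.57 ± 0.17, adjusted p = 0.0135), a call that DESeq2 lost. Sec13 and Seh1l, which also serve in nuclear pores and, for Sec13, in COPII coats, were the most abundant genes of the branch, at 68.0 to 94.7 FPKM and 38.3 to 53.1 FPKM. Neither was called in any culture (adjusted p of at least 0.069).

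The KICSTOR genes Kptn and Itfg2 rose in KO pluripotent cells. Kptn was at 4.49 FPKM in WT versus 7.74 and 7.89 FPKM in KO (0.92 ± 0.24, adjusted p = 0.00627), and Itfg2 at 6.99 FPKM in WT versus 10.02 and 9.24 FPKM in KO (0.59 ± 0.16, adjusted p = 0.00989). DESeq2 called neither, and Itfg2 was also lost without KO pluripotent replicate 1. In embryoid bodies Kptn was at 4.95 FPKM in WT versus 3.40 and 4.78 FPKM in KO, which did not pass (adjusted p = 0.41).

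Both AKT kinase genes were higher in KO pluripotent cells, and their differences in the other cultures were smaller and not called. Akt1 was at 11.4 FPKM in WT versus 23.8 and 23.6 FPKM in KO pluripotent cells, at 14.6 against 17.1 and 16.0 FPKM after LIF withdrawal, and at 19.0 against 15.5 and 16.6 FPKM in embryoid bodies. The KO pluripotent values were the highest of the 9 and the WT pluripotent value the lowest. The rise was 1.17 ± 0.11 in pluripotent culture (adjusted p = 5.33e-06), and the differences elsewhere were 0.24 ± 0.11 (adjusted p = 0.114) and -0.25 ± 0.11 (adjusted p = 0.0937). Akt2 was at 16.2 FPKM in WT versus 28.6 and 24.9 FPKM in KO pluripotent cells, at 15.7 against 19.0 and 18.0 FPKM after LIF withdrawal, and at 14.2 against 15.7 and 15.7 FPKM in embryoid bodies. It exceeded WT in every KO library and rose by 0.83 ± 0.12 in pluripotent culture (adjusted p = 0.000129).

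Pdpk1 encodes PDK1, the kinase that activates AKT and S6K, and changed sides between cultures. It was at 11.1 FPKM in WT versus 6.44 and 7.28 FPKM in KO pluripotent cells, at 8.09 against 11.01 and 11.92 FPKM after LIF withdrawal, and at 6.4 against 9.35 and 8.76 FPKM in embryoid bodies. It fell in the first culture (-0.57 ± 0.10, adjusted p = 0.000446) and rose in the other two (0.48 ± 0.10, adjusted p = 0.00275, and 0.50 ± 0.10, adjusted p = 0.0028). With Akt1s1 it was 1 of 2 members, of 42, called in opposite directions in different cultures, as were 1259 of all 13990 genes. Pik3ca, the catalytic PI3K subunit p110 alpha, lay between 3.78 and 6.01 FPKM and was not called in any culture (adjusted p = 0.936, 0.752 and 0.4). A length correction called Pik3ca higher in KO pluripotent cells (0.27) and lower in KO embryoid bodies (-0.29).

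Of the 9 effectors, 3 rose and 3 fell in KO pluripotent cells, 1 rose and 1 fell after LIF withdrawal, and 1 rose and 2 fell in embryoid bodies. Lpin1, whose protein mTORC1 keeps out of the nucleus, had the largest difference of any member. After LIF withdrawal it was at 7.80 FPKM in WT versus 3.59 and 3.83 FPKM in KO, and in embryoid bodies at 5.04 FPKM in WT versus 4.40 and 4.66 FPKM in KO. Each KO value was below the WT value of its culture, and the gap narrowed from 1 culture to the next as WT went down and KO went up. The fall after LIF withdrawal was 1.01 ± 0.13 on the log2 scale (adjusted p = 5.56e-05), and the difference of -0.16 ± 0.13 in embryoid bodies was not called (adjusted p = 0.384).

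The 4E-BP genes, whose products hold eIF4E inactive until mTORC1 phosphorylates them, differed in opposite directions in pluripotent culture. Eif4ebp1 was at 321 FPKM in WT versus 379 and 398 FPKM in KO pluripotent cells, at 274 against 317 and 288 FPKM after LIF withdrawal, and at 249 against 281 and 284 FPKM in embryoid bodies. Its rise was called in pluripotent culture (0.40 ± 0.09, adjusted p = 0.00285) but not with a length correction, which gave 0.05. That correction instead called it higher in KO after LIF withdrawal (0.27) and in embryoid bodies (0.34). Eif4ebp2 was at 80.1 FPKM in WT versus 60.0 and 57.0 FPKM in KO pluripotent cells (-0.33 ± 0.10, adjusted p = 0.012), a fall that DESeq2 and the fit without KO replicate 2 did not call. The S6 kinase genes were opposed too. Rps6kb1 was at 11.2 FPKM in WT versus 7.93 and 7.92 FPKM in KO pluripotent cells (-0.37 ± 0.10, adjusted p = 0.00722), and Rps6kb2 at 9.87 FPKM in WT versus 12.3 and 13.7 FPKM in KO (0.52 ± 0.18, adjusted p = 0.0301). Neither S6 kinase call held with DESeq2 or a length correction, and that of Rps6kb2 was also lost with limma and without KO replicate 2.

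Maf1, a repressor of RNA polymerase III that mTORC1 inhibits, was at 32.3 FPKM in WT versus 35.9 and 37.5 FPKM in KO pluripotent cells, at 26.6 against 31.8 and 31.9 FPKM after LIF withdrawal, and at 33.0 against 34.0 and 38.1 FPKM in embryoid bodies. It was above WT in all 6 KO libraries and was called in the first 2 cultures (0.29 ± 0.11, adjusted p = 0.0343, and 0.32 ± 0.11, adjusted p = 0.0361). DESeq2, limma and leaving out either KO library of the culture each lost both calls. Pdcd4, a translation inhibitor that S6K marks for degradation, was at 31.4 FPKM in WT versus 50.9 and 47.0 FPKM in KO embryoid bodies. These 3 values were the highest of the 9, the other 6 being between 18.8 and 24.6 FPKM. Pdcd4 rose in KO embryoid bodies by 0.63 ± 0.11 (adjusted p = 0.00075) and was not called in the other cultures (adjusted p = 0.516 and 0.844). Eif4e and Eif4b fell slightly in KO embryoid bodies, Eif4e from 40.2 FPKM to 34.7 and 34.0 FPKM (-0.23 ± 0.08, adjusted p = 0.04) and Eif4b from 242 FPKM to 192 and 205 FPKM (-0.29 ± 0.09, adjusted p = 0.0252). Limma called neither, the Eif4e call was also lost with DESeq2, with no filter on low levels and without KO pluripotent replicate 2 or either KO embryoid body library, and the Eif4b call without KO embryoid body replicate 1.

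The differences moved with gene length over all genes. In pluripotent culture genes shorter than 1976 bases had a median KO versus WT difference of 0.22 and genes longer than 3517 bases one of -0.21, and Spearman's rho with length was -0.23 across all genes and -0.27 across the 42 members, which are not independent replicates. Members that rose there had a median length of 2706 bases and those that fell one of 5359 bases. With a length correction, added after the data were seen, 15 members rose and 9 fell in pluripotent culture, where 22.5% and 26.9% of all genes did in the same corrected fit, and 21 of the 26 calls were kept. The 5 lost were Nprl2, Rps6kb1, Rps6kb2, Eif4ebp1 and Maf1, and the 3 gained were Rhebl1, Pik3ca and Eif4e. Lpin1 then stood at -1.995, Sesn2 at -1.44, Akt1 at 1.13, Rictor at -0.44 and Tsc2 at 0.71, all called. After LIF withdrawal the correction lost Deptor and gained Tti1 and Eif4ebp1. In embryoid bodies it lost Rptor and Rheb and gained Deptor, Telo2, Pik3ca and Eif4ebp1. Whether length itself, RNA quality or another property that goes with length lies behind the trend was not tested.

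**Figure D3:**
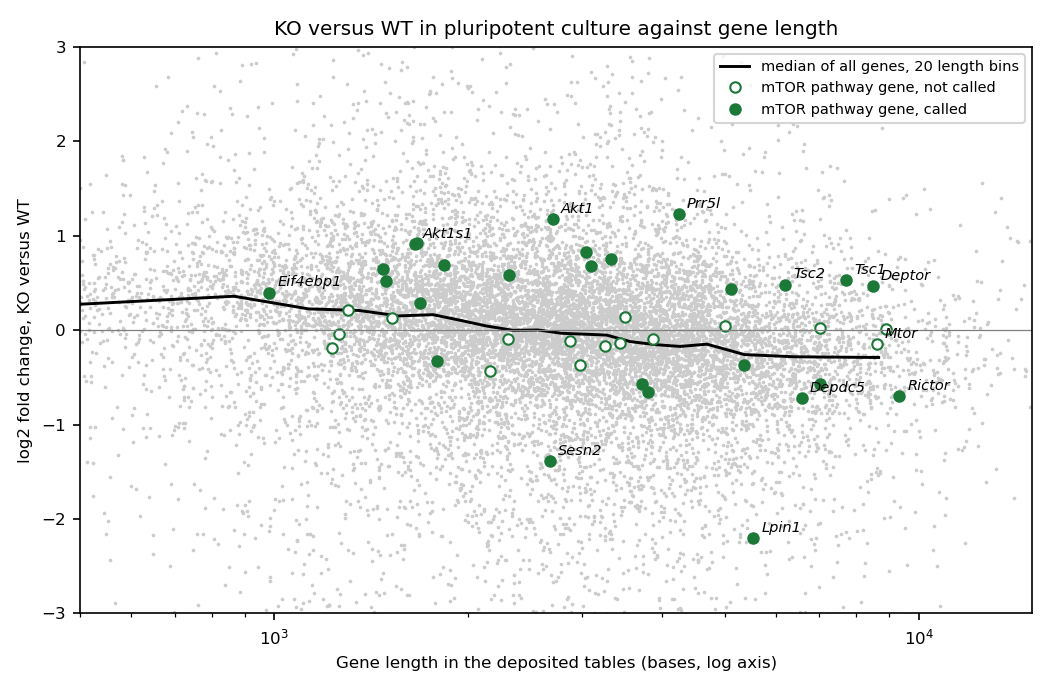
Log2 fold change of KO versus WT in pluripotent culture (vertical axis) against gene length in bases (log axis) for the 13990 genes tested, in grey, with their median in 20 bins of length as a black line. Members are green circles, filled where called. Lpin1 at -2.20 and Sesn2 at -1.39 lie far below the line at their lengths, whereas Eif4ebp1 at 0.40 lies close to it.

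Over the 3 cultures together, 8 members rose and 4 fell in KO, where 13.3% of all genes rose and 13.8% fell, with a median of 0.05 against -0.02 over all genes. The risers were Prr5l (0.72 ± 0.19, adjusted p = 0.0234), Prr5 (0.48 ± 0.11, adjusted p = 0.015), Mlst8 (0.47 ± 0.14, adjusted p = 0.0407), Tsc2 (0.45 ± 0.07, adjusted p = 0.00268), Akt2 (0.42 ± 0.13, adjusted p = 0.0468), Tsc1 (0.41 ± 0.09, adjusted p = 0.0094), Wdr59 (0.41 ± 0.10, adjusted p = 0.0157) and Eif4ebp1 (0.26 ± 0.08, adjusted p = 0.0424). The fallers were Lpin1 (-1.18 ± 0.30, adjusted p = 0.0191), Sesn2 (-0.83 ± 0.19, adjusted p = 0.0144), Sesn3 (-0.59 ± 0.14, adjusted p = 0.0169) and Tti1 (-0.34 ± 0.10, adjusted p = 0.0408). In the values given above, the 2 KO libraries of every culture lay on the same side of their WT library for each of these 12. The spread of this fit pools how a difference varied between cultures with the smaller spread of the KO pairs. Tsc1 and Tsc2 were the members whose call over the 3 cultures held under every alternative run. Without WT LIF withdrawal replicate 1 only 4 members were called, and the calls of Lpin1, Sesn2, Prr5, Wdr59, Mlst8, Tti1, Akt2 and Eif4ebp1 were lost. Without KO pluripotent replicate 2 it was 6 members, Lpin1, Prr5l, Mlst8, Tti1, Akt2 and Eif4ebp1 losing their calls. Prr5l and Sesn3 lost theirs without the WT embryoid body library, and Prr5l also without KO embryoid body replicate 1. The calls of Mlst8, Tti1, Akt2 and Eif4ebp1 were lost in 7 or 8 of the 9 fits that left out 1 library, and those of Mlst8, Akt2 and Eif4ebp1 with the length correction.

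The comparison of each of the other cultures with pluripotent culture asked how the members responded in WT and in KO. In WT cells 2 members rose and 1 fell after LIF withdrawal, where 11.6% and 8.90% of all genes did, each tested on 1 library against 1. They were Sesn3 (1.01 ± 0.23, adjusted p = 0.00824), Akt1s1 (0.73 ± 0.20, adjusted p = 0.0209) and, falling, Pdpk1 (-0.43 ± 0.11, adjusted p = 0.0195). In KO cells 17 rose and 14 fell, where 30.2% and 29.0% of all genes did. In embryoid bodies 10 rose and 8 fell in WT, against 19.7% and 18.9% of all genes, and 14 rose and 13 fell in KO, against 31.0% and 30.0%. KO had 2 libraries a group and WT 1, so these counts differ in precision and cannot be set against each other, and the responses were compared by a test of their difference.

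By that test 8 members had a higher and 5 a lower response to LIF withdrawal in KO than in WT, where 17.5% and 14.9% of all genes did. For embryoid bodies it was 12 and 10 members, against 22.4% and 19.5% of all genes. Both sets share the pluripotent libraries with each other and with the KO versus WT comparison above, so none of them stands as separate evidence. Lpin1 fell in WT embryoid bodies (-0.85 ± 0.14) and rose in KO embryoid bodies (1.20 ± 0.12), a difference of 2.05 ± 0.19 (adjusted p = 1.2e-05). Akt1 rose in WT (0.75 ± 0.13) and fell in KO (-0.67 ± 0.09), a difference of -1.42 ± 0.16 (adjusted p = 3.68e-05). Akt1s1 likewise rose in WT, by 1.12 ± 0.19, and fell in KO, by 0.34 ± 0.13 (log2), a difference of -1.46 ± 0.23 (adjusted p = 0.000474). Pdpk1 fell in WT embryoid bodies (-0.78 ± 0.12) and rose in KO (0.29 ± 0.08), a difference of 1.06 ± 0.14 (adjusted p = 0.000149).

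The sensing branch gave further differences. Sesn2 rose in KO embryoid bodies (1.04 ± 0.12) and had -0.18 ± 0.16 in WT, which was not called, and the responses differed by 1.22 ± 0.20 (adjusted p = 0.0005). Sesn1 fell in WT (-0.48 ± 0.15) and rose in KO (0.37 ± 0.10), a difference of 0.85 ± 0.18 (adjusted p = 0.0031). Sesn3 rose in both genotypes, by 1.58 ± 0.22 in WT and 1.15 ± 0.18 in KO embryoid bodies, and the difference of -0.44 ± 0.28 was not called (adjusted p = 0.237). Depdc5 rose in KO (0.62 ± 0.09) and fell in WT (-0.37 ± 0.13), a difference of 0.99 ± 0.16 (adjusted p = 0.000497). Rictor rose in KO after LIF withdrawal by 1.14 ± 0.09 and had 0.20 ± 0.12 in WT (adjusted p = 0.255), and these differed by 0.93 ± 0.15 (adjusted p = 0.000613). Pdcd4 rose in both genotypes in embryoid bodies, by 0.54 ± 0.13 in WT and 1.27 ± 0.09 in KO, with a difference of 0.73 ± 0.16 (adjusted p = 0.00338).

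**Figure D4:**
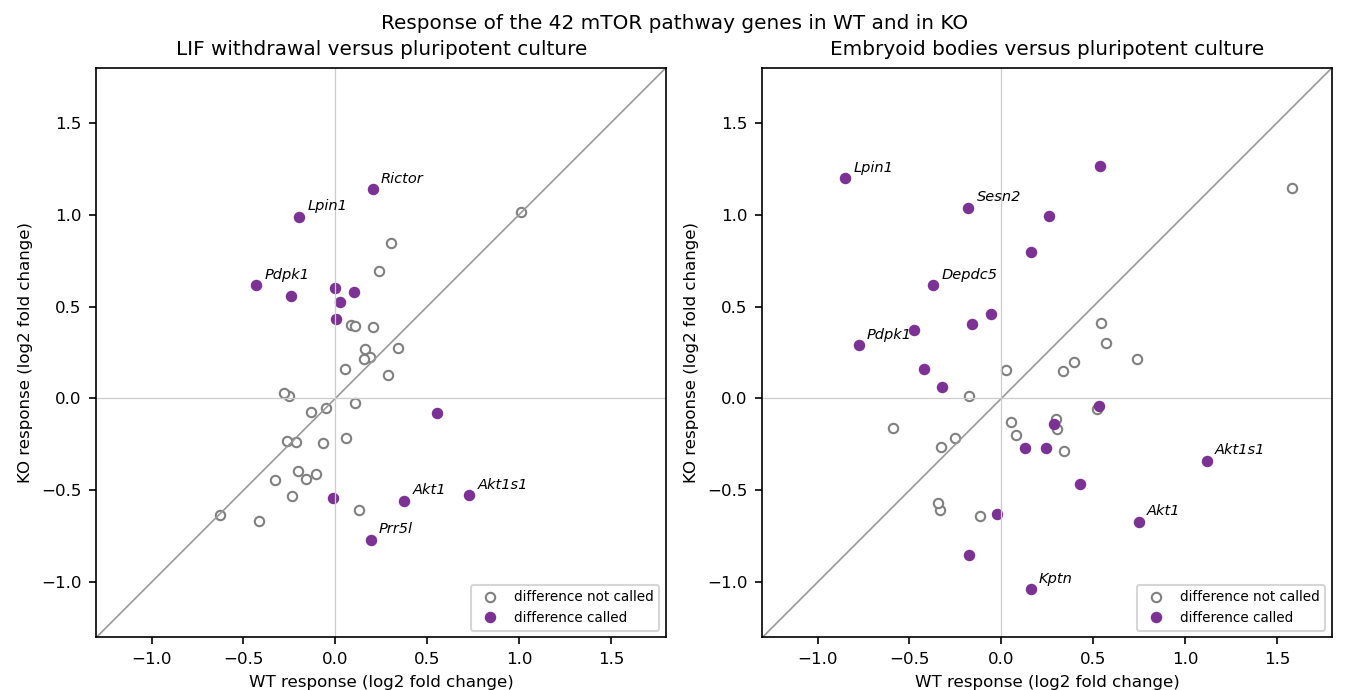
Response of each of the 42 members in WT (horizontal axis) and KO (vertical axis), as log2 fold changes against pluripotent culture, after LIF withdrawal (left) and in embryoid bodies (right). The diagonal marks equal responses, and filled points are members whose difference between genotypes was called. Lpin1, with 2.05 in embryoid bodies, lies farthest above the diagonal and Akt1s1 and Akt1, with -1.46 and -1.42, farthest below.

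Gene length also moved with the KO responses. For KO cells after LIF withdrawal Spearman's rho between response and length was 0.43 across all genes and 0.56 across the members. With the length correction 10 members rose and 9 fell in that comparison, against 26.4% and 23.4% of all genes in the corrected fit, and 13 of the 31 calls kept their direction. Tsc1 and Pik3ca were called in opposite directions by the 2 fits: Tsc1 with 0.27 and then -0.26, Pik3ca with 0.23 and then -0.35. Mtor (0.40, then -0.17), Rptor (0.40, then -0.11), Rheb (-0.22, then 0.12), Eif4ebp1 (-0.40, then 0.13) and Maf1 (-0.23, then 0.06) changed sign and were no longer called. Rictor (0.56), Lpin1 (0.59), Sesn2 (0.89), Sesn3 (1.17) and Akt1 (-0.52) remained called. In KO embryoid bodies 11 rose and 11 fell with the correction, against 30.3% and 26.1% of all genes, and 16 of 27 calls were kept. Tsc1, Sec13 and Pdpk1 changed sign and lost their calls there.

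The tests of the difference between responses depended on length as well. With the correction 6 members had a higher and 6 a lower response to LIF withdrawal in KO, where 14.9% and 13.1% of all genes did, and 9 of the 13 calls were kept. In embryoid bodies 7 had a higher and 13 a lower response, where 19.1% and 16.7% of all genes did, and 12 of the 22 calls were kept. Tti1, Depdc5, Itfg2 and Rps6kb1 were lost for LIF withdrawal. Mtor, Rictor, Prr5, Tti1, Rheb, Mios, Sec13, Kptn, Rps6kb1 and Rps6kb2 were lost for embryoid bodies. Gained for LIF withdrawal were Sesn2, higher in KO, and Deptor and Tsc2, lower in KO. Gained for embryoid bodies were Mlst8, Telo2, Tsc1, Tsc2, Wdr59, Pik3ca, Eif4e and Eif4b, all lower in KO. For embryoid bodies Lpin1 (1.71), Akt1 (-1.41), Akt1s1 (-1.18), Sesn2 (1.24), Sesn1 (0.83), Pdpk1 (0.67) and Depdc5 (0.61) remained called.

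Other genes of the pathway, from lists of amino acid sensing genes, growth factor and energy inputs, and further effectors, were counted the same way over the 3 cultures, where 13.3% of all genes rose and 13.8% fell. These lists were chosen with earlier results of these data known, so their shares beside those of all genes are descriptions only. Of 19 other amino acid sensing genes 4 rose and 3 fell in KO. Among them Castor2, of the CASTOR arginine sensor family, fell (-1.36 ± 0.21, adjusted p = 0.00188), as did the lysosomal arginine sensor gene Slc38a9 (-0.95 ± 0.18, adjusted p = 0.00491), and Rragc, a Rag GTPase gene, rose (0.90 ± 0.14, adjusted p = 0.00218). Rragc was at 13.8 FPKM in WT versus 35.1 and 29.9 FPKM in KO pluripotent cells. Of 27 growth factor and energy inputs 1 rose and 10 fell, with a median of -0.21 against -0.02 over all genes. The riser was Tcl1, an AKT coactivator gene (1.41 ± 0.16, adjusted p = 0.000459). Ddit4, the gene of the stress-induced mTORC1 inhibitor REDD1, was at 82.8 FPKM in WT versus 4.71 and 11.3 FPKM in KO pluripotent cells, at 129 against 13.0 and 28.2 FPKM after LIF withdrawal, and at 93.2 against 21.6 and 28.0 FPKM in embryoid bodies. It fell by 2.60 ± 0.32 (log2) (adjusted p = 0.000754), and its relative Ddit4l by 2.09 ± 0.27 (adjusted p = 0.000899).

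Of 24 other mTOR effectors 6 rose and 3 fell. Sgk1, a kinase gene whose product is a substrate of mTORC2, was at 51.9 FPKM in WT versus 11.4 and 12.2 FPKM in KO pluripotent cells, at 34.1 against 3.12 and 3.38 FPKM after LIF withdrawal, and at 74.8 against 8.38 and 9.97 FPKM in embryoid bodies. Every KO value was below every WT value, and Sgk1 fell by 2.80 ± 0.20 (log2) (adjusted p = 9.32e-05). The lysosomal regulator gene Tfeb (0.72 ± 0.13, adjusted p = 0.00388) and the autophagy gene Atg13 (0.58 ± 0.10, adjusted p = 0.00394) rose. In pluripotent culture, where 25.5% of all genes rose and 26.3% fell, 8 of the 19 sensing genes rose and 5 fell, 6 of the 27 inputs rose and 15 fell, and 8 of the 24 effectors rose and 7 fell. After LIF withdrawal, against 18.4% and 17.5% of all genes, 2 of 19 rose and 6 fell, 3 of 27 rose and 11 fell, and 8 of 24 rose and 3 fell. In embryoid bodies, against 19.4% and 17.8%, 4 of 19 rose and 3 fell, 4 of 27 rose and 8 fell, and 7 of 24 rose and 6 fell.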

How the data were processed

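RNA-seq of 9 libraries was analysed, with the 6 groups given by the labels. The submitters' processing notes name Bowtie2 and the mouse build mm8, and the quantifier, annotation version and strandedness are not given in the sources used here. Per the file headers, each deposited table gives a gene's expected count (an estimated count that need not be whole), its FPKM as made by the authors, and a gene length. An unlisted gene counted as 0. Of 20287 gene IDs, 20234 matched the RefSeq gene table of GRCm38 by ID and 9 by accession, and all 42 members matched by symbol. That table was used for names, neighbours and promoters. In it 11 members overlap another protein-coding gene and Akt2 has a named pseudogene, so without strand reads may be shared. The 11 are Mtor, Mlst8, Tti1, Tsc2, Nprl2, Nprl3, Itfg2, Pik3ca, Rps6kb1, Pdcd4 and Lpin1.

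Counts were rounded, and those genes whose mean FPKM reached 0.5 were tested with edgeR 4.0.16 (R 4.3.3): TMM factors of 0.94 to 1.04, quasi-likelihood tests, Benjamini-Hochberg adjustment over 13990 genes, called below 0.05. A mean for each group was fitted (3 residual degrees of freedom, biological coefficient of variation 6.52%). The comparison over the 3 cultures used an additive fit (5 degrees of freedom, 18.1%). A standard error is the size of the log2 fold change divided by the root of F. No KO pair looked like copies of 1 library: chi-square over its degrees of freedom was 3.33, 4.62 and 3.05. Members and gene lists were chosen with earlier results of these data known. Values in every library are printed for members called over the 3 cultures or called the same way in 2 cultures. The same holds for those called with a log2 difference of at least 1. Of the members called in no culture, Tbc1d7 has values in every library and Nprl3 those of pluripotent culture. Mapkap1, Telo2, Seh1l, Sec13 and Pik3ca are given as ranges. Other members were added for their role, and of each further list the 3 genes with the smallest p over the 3 cultures are named. Alternatives were DESeq2 1.42.0, its size factors in edgeR, limma 3.58.1 on log2(FPKM + 1) and no filter. A replicate block, the mean of the 3 within-culture contrasts and leaving out each library were also run. A comparison that lost the only library of a group could not be fitted. A length correction, chosen after seeing the data, was an offset from a smooth curve of each library's log2 ratios on gene length. Scripts were tested on simulated counts for KO versus WT in pluripotent culture and over the 3 cultures only. The simulation used a single spread for all genes and no culture effects, so it does not bear on the other comparisons. Its spread was set near that of the group fit, below that of the additive fit, with an equal genotype effect in every culture. It therefore does not match the data for the comparison over the 3 cultures either.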

Additional observations from a re-analysis of the deposited data

Results flagged for a closer look

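The KO and WT responses of the following members differed by a test of the difference itself (edgeR's quasi-likelihood test, Benjamini-Hochberg adjusted over all genes tested), and each value is the KO response minus the WT response on the log2 scale. For LIF withdrawal against pluripotent culture, the response was higher in KO for the effectors Lpin1 (1.19), Eif4ebp2 (0.50) and Rps6kb1 (0.48), for Pdpk1 (1.05), for the complex and assembly genes Rictor (0.93) and Tti1 (0.43), and for the sensing genes Sesn1 (0.80) and Depdc5 (0.60). It was lower in KO for Akt1s1 (-1.26), Prr5l (-0.96), Akt1 (-0.93), Itfg2 (-0.63) and Akt2 (-0.53).

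For embryoid bodies against pluripotent culture, it was higher in KO for Lpin1 (2.05), Pdcd4 (0.73), Rps6kb1 (0.57) and Eif4ebp2 (0.39) among the effectors. It was also higher for Sesn2 (1.22), Depdc5 (0.99), Sesn1 (0.85) and Mios (0.63) of the sensing branch, for Pdpk1 (1.06), and for Rictor (0.73), Mtor (0.58) and Tti1 (0.52). It was lower in KO for Akt1s1 (-1.46), Deptor (-0.57) and Prr5 (-0.51), for Akt1 (-1.42) and Akt2 (-0.67), for Kptn (-1.20), Wdr24 (-0.60) and Sec13 (-0.40), and for Rps6kb2 (-0.90) and Rheb (-0.43). Both comparisons use the same 3 pluripotent libraries. With the length correction 9 of the calls for LIF withdrawal and 12 of those for embryoid bodies were kept, and those lost and gained are named above. DESeq2 called fewer members in both comparisons, as given below.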

How the results depend on the processing

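Of 62 called KO versus WT differences of members, none changed sign under any alternative, 28 stayed called under all of them and 39 under every fit that left out 1 library. A difference within a culture could not be fitted without that culture's only WT library, so no such fit is counted here. Calls were lost for 21 with DESeq2, 13 with limma and 11 with the length correction. Calls were also lost for 4 with the replicate block, 3 with no filter and 0 with DESeq2's size factors in edgeR. The number of members called with DESeq2 was 17 in place of 26 for KO versus WT in pluripotent culture, 5 in place of 11 after LIF withdrawal and 7 in place of 13 in embryoid bodies. It was 17 in place of 27 for the KO and 10 in place of 18 for the WT embryoid body response, and 5 in place of 13 and 12 in place of 22 for the differences between responses. For the WT response to LIF withdrawal edgeR called 3, DESeq2 0 (3 at an unadjusted p below 0.05, against 9 in edgeR), limma 1, the length correction 5 and the replicate block 7. The length correction called 19 in place of 31 for the KO response to LIF withdrawal. Over the 3 cultures the mean of the 3 within-culture contrasts called 23 members in place of 12, and leaving out 1 library gave 4 to 15, with 6 without KO pluripotent replicate 2 and 4 without WT LIF withdrawal replicate 1. Same-numbered KO libraries are not stated to share an origin, and deviations correlated by 0.18, 0.02 and 0.07 between cultures, so the numbers were not taken as pairs. With the replicate block 28, 14 and 16 members were called in the 3 cultures and 8 over them. The causes of these changes were not tested. Library totals of 10147277 to 10863845 counts gave every member counts above 0, and the 1 WT library per culture limits the precision.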
